A study of Mus musculus with 6 samples.

Results

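The ligands of the EGF receptor family and the feedback proteins that restrain their receptors were described in mouse podocytes treated with FGF1 under high glucose (HG). The 9 genes were chosen by symbol and function, with no threshold on their values but with earlier results of these data known. They are 6 ligand genes, *Hbegf*, *Areg*, *Ereg*, *Tgfa*, *Btc* and *Nrg1*, and 3 feedback genes, *Errfi1*, *Lrig1* and *Lrig3*. Each was found at 1 locus among the 24469 loci of the expression table. RNA-Seq was performed on MPCs in 3 groups of 2 libraries. MPCs are a conditionally immortalized mouse podocyte line, grown with interferon gamma and differentiated without it for 10 days. All 6 libraries came from cells starved for 12 h and then held at 25 mM glucose for 12 h. HG cells received no FGF1. The other groups were pretreated for 1 h with 100 ng/mL of recombinant wild-type human FGF1 (rFGF1WT) or of rFGF1ΔHBS. The latter is a partial agonist whose substitutions in the heparan sulfate binding site weaken receptor dimerization. No group at normal glucose was analysed here, and the labels do not say whether replicates were separate cultures, so p-values measure only the spread between these libraries.

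Ligands of this family are made as membrane-anchored precursors, and metalloproteases of the ADAM family release them so that they can bind receptors on the same or on neighboring cells. EGFR, ERBB2, ERBB3 and ERBB4 then pair, phosphorylate each other and start the ERK and AKT cascades. Cells answer with brakes of their own, among them ERRFI1 (also called MIG6), which binds the EGFR kinase domain and blocks it, and LRIG1, a transmembrane protein that promotes receptor degradation. In the glomerulus, podocyte HB-EGF and EGFR are best known from injury models, in which they accompany proteinuria.

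Expression is given as FPKM, the fragments of a gene scaled to the length of its transcripts and to the mapped fragments of the library. FPKM summed to between 179594 and 185168 per library and were above 0 at 19041 to 19239 loci. Over the loci tested below, log2(FPKM + 1) correlated at r of 0.916 to 0.923 between replicates. Libraries of different groups correlated at 0.895 to 0.924, so the 2 ranges overlapped. Read totals are not part of FPKM, so depth is unknown. Markers of the labelled cell type were only partly present: 10 of 11 podocyte genes were in the table, 5 averaged 1 FPKM or more, and *Wt1*, *Lmx1b* and *Ptpro* lay under 0.1. The summed FPKM of these 10 genes was 163 to 170 in HG, 185 to 200 with rFGF1WT and 186 to 190 with rFGF1ΔHBS. Within this sum *Cd2ap* and *Actn4* were higher in all treated libraries than in HG, and *Synpo* and *Podxl* were lower, without passing the test. The 4 kidney tubule markers in the table (of 6 listed) all averaged at least 1 and summed to 177 in both HG libraries, 131 to 139 with rFGF1WT and 128 to 136 with rFGF1ΔHBS. None of them passed the test. *Cdh16* (means 90.6 in HG, 71.1 with rFGF1WT and 70.3 with rFGF1ΔHBS), *Aqp1* and *Lrp2* were lower in all treated libraries than in HG. *Pax8* overlapped HG (18.5, 18.0 and 16.5). The 6 mesangial markers, 3 of them averaging at least 1, summed to 57.2 to 58.9, 69.8 to 72.6 and 63.1 to 71.0 in the same order. These 3 did not move together, and none passed the test. *Pdgfrb* was lower in all treated libraries than in HG (means 32.2, 26.9 and 26.8). *Acta2* (11.8, 17.2 and 14.4) and *Tagln* (13.8, 26.9 and 25.7) were higher. Of the 5 macrophage and leukocyte markers, *Ptprc*, *Adgre1* and *Itgam* lay under 0.1, and the other two moved in opposite directions. The locus of *Cd68*, a lysosomal protein gene, carries 2 gene names, so its FPKM cannot be given to *Cd68* alone. It measured 53.1 and 50.1 FPKM in HG, 66.3 and 63.1 with rFGF1WT, and 67.1 and 67.3 with rFGF1ΔHBS. This locus rose in both comparisons with HG (limma adjusted p = 0.0496 and 0.0363). These *Cd68* calls were lost without any 1 of the 6 libraries, of HG or of either protein (adjusted p of 0.101 to 0.162 and 0.0755 to 0.126). *Csf1r*, the receptor gene of macrophage colony-stimulating factor, measured 9.56 and 10.7 in HG, 3.21 and 3.68 with rFGF1WT, and 3.93 and 3.76 with rFGF1ΔHBS, and fell by 1.32 and 1.19 on the log2 scale (adjusted p = 0.0114 and 0.0140). The *Csf1r* call with rFGF1WT was lost without HG replicate 2 (0.0510), and the call with rFGF1ΔHBS without either HG or either rFGF1ΔHBS library (0.0583 to 0.0686). The 5 markers summed to 60.9 to 62.8 in HG, 66.8 to 69.6 with rFGF1WT and 71.1 with rFGF1ΔHBS, mostly from the *Cd68* locus. The 5 endothelial markers summed to at most 0.167. The part of these marker levels in the results was not tested, and in bulk RNA fewer cells of a type and less RNA per cell cannot be told apart.

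Per length of transcript, *Lrig1* was the most abundant of the 9 genes in each library. *Hbegf* and *Errfi1* came next, with overlapping values in HG (4.95 to 9.18 and 6.42 to 6.89) and *Hbegf* above *Errfi1* in both treated groups. *Lrig3* exceeded *Nrg1* in HG, whereas *Nrg1* exceeded *Lrig3* with either protein. *Tgfa* followed at 1.84 to 2.57, *Btc* stayed under 0.5, and *Areg* and *Ereg* were at or next to 0, where their order could not be told. The 6 genes with a mean FPKM of at least 1, *Hbegf*, *Tgfa*, *Nrg1*, *Errfi1*, *Lrig1* and *Lrig3*, entered the test, which compared log2(FPKM + 1) with limma across 10562 loci.

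**Figure D1:**
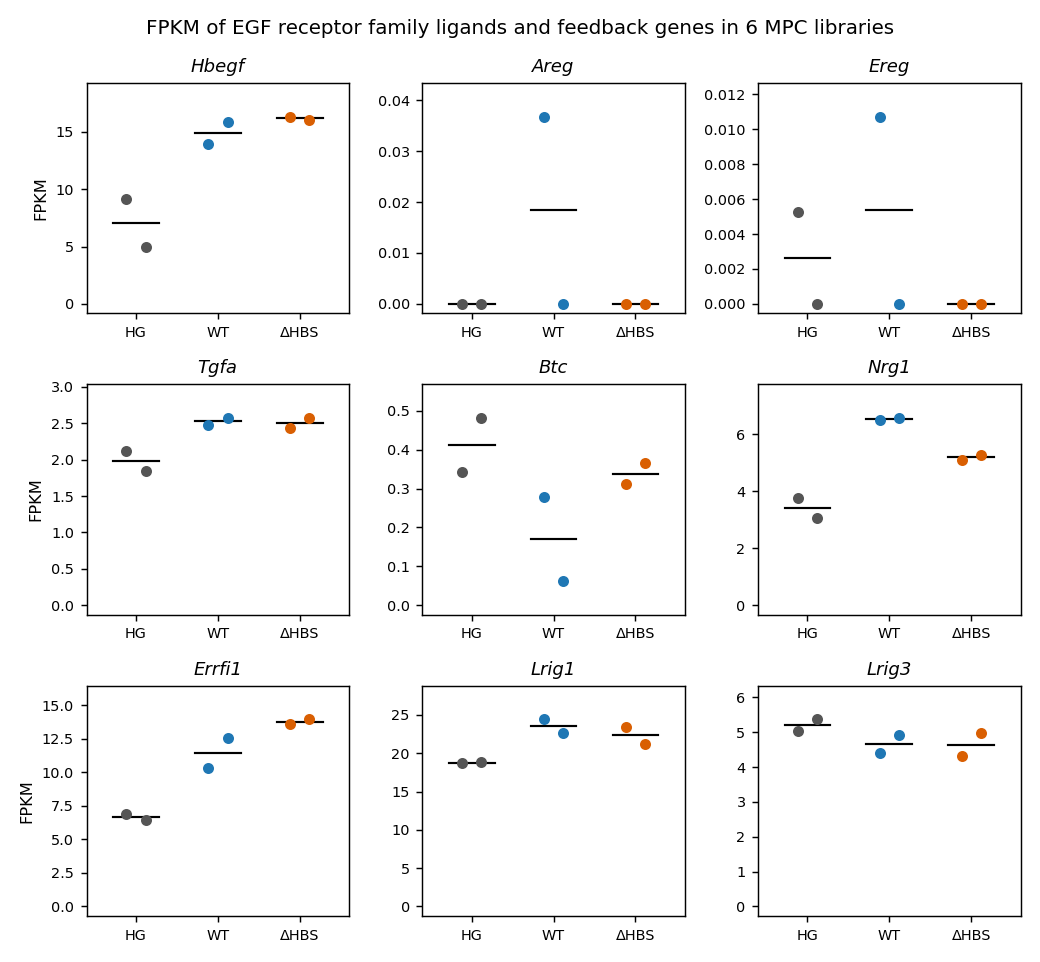
Each panel plots the FPKM of 1 gene (vertical axis, starting at 0) in the 2 libraries of each group (points) with the group mean (bar), for HG, rFGF1WT (WT) and rFGF1ΔHBS (ΔHBS). Treated libraries lie above HG for *Hbegf*, *Tgfa*, *Nrg1*, *Errfi1* and *Lrig1* and below HG for *Lrig3*.

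rFGF1WT was compared with HG to find which of these genes differ in podocytes given the wild-type protein. *Nrg1* and *Errfi1* rose, by 1.92 and 1.72 times in mean FPKM. *Hbegf*, *Tgfa* and *Lrig1* were higher in both treated libraries than in either HG library without passing the test, *Lrig3* was lower without passing it, and *Areg*, *Ereg* and *Btc* were too low to enter it. Thus 2 of the 6 tested genes passed an adjusted p of 0.05, both upward, where 6.19% of all tested loci passed in either direction, 3.26% upward and 2.94% downward. Neither gene passed a 2-fold limit on the log2(FPKM + 1) scale, which 1.01% of loci did. Libraries of the groups did not overlap for 5 genes upward and 1 downward, against 24.1% and 34.1% of all tested loci, and the median log2 fold change was 0.50 for the 6 genes and -0.04 for all loci.

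rFGF1ΔHBS was compared with the same 2 HG libraries, so its differences share the controls of the first comparison. *Errfi1* rose by 2.07 times, and 1 of the 6 tested genes passed, upward, beside 6.26% of all loci in either direction, 3.37% upward and 2.89% downward. None passed the 2-fold limit, beside 0.899% of loci. *Hbegf*, *Tgfa*, *Nrg1*, *Errfi1* and *Lrig1* again lay above HG in both libraries and *Lrig3* below it, where 24.4% and 32.9% of loci did so, and the median was 0.37 for the 6 genes and -0.04 for all loci. In the direct comparison of rFGF1ΔHBS with rFGF1WT, which asks where the partial agonist and the wild-type protein differ, limma called 0 of the 6 genes at an adjusted p of 0.05, beside 0.549% of all tested loci in either direction (0.294% higher and 0.256% lower with rFGF1ΔHBS) and 0.35% past the 2-fold limit as well. At an unadjusted p under 0.05 it called 1, *Nrg1*, beside 4.87% of loci. *Hbegf* and *Errfi1* were higher and *Nrg1* lower in both rFGF1ΔHBS libraries than in either rFGF1WT library, beside 18.4% of loci higher and 16.1% lower.

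**Figure D2:**
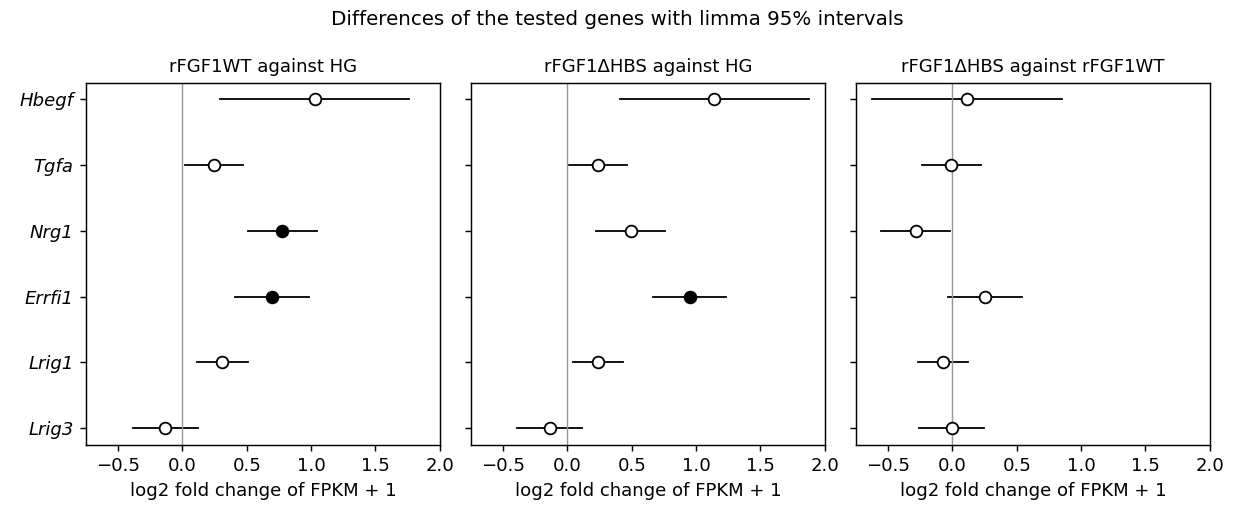
Points give the log2 fold change of FPKM + 1 (horizontal axis) for the 6 tested genes in the 3 comparisons, and bars give limma's 95% intervals. Against HG the intervals of *Hbegf*, *Tgfa*, *Nrg1*, *Errfi1* and *Lrig1* lie above 0, and between the proteins the interval of *Nrg1* alone lies off 0. The intervals are not adjusted for the number of loci. An unadjusted limma p under 0.05 was reached by 24.8% of tested loci for rFGF1WT against HG. For rFGF1ΔHBS against HG this share was 24.9%, and between the proteins 4.87%.

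Among the ligands, *Hbegf* encodes heparin-binding EGF-like growth factor, which binds EGFR and ERBB4. Its gene lies at chr18:36504927-36515805 on the minus strand (GRCm38) and has 6 exons. *Hbegf* measured 9.18 and 4.95 FPKM in HG, 13.9 and 15.9 with rFGF1WT, and 16.3 and 16.0 with rFGF1ΔHBS. Both treated groups lay above HG without overlap, and the HG pair differed by more than the pair of either treated group. Means were 7.06 ± 2.99 in HG, 14.9 ± 1.39 with rFGF1WT and 16.2 ± 0.225 with rFGF1ΔHBS (SD, n = 2). In the fit across all loci the log2 fold change was 1.03 (SE 0.27, 95% interval 0.29 to 1.77, limma adjusted p = 0.116) for rFGF1WT. For rFGF1ΔHBS it was 1.14 (0.41 to 1.88, adjusted p = 0.0947). These, the largest fitted differences among the 6 tested genes, did not pass the test, and their residual SD of 0.33 lay at percentile 83.2 of all tested loci. Its value moved most with the HG libraries: without HG replicate 1 the changes were 1.42 (adjusted p = 0.0475) and 1.53 (adjusted p = 0.0447), and without HG replicate 2 they were 0.64 (0.104) and 0.76 (0.0833). Without a treated library they were 0.94 to 1.12 for rFGF1WT and 1.13 to 1.16 for rFGF1ΔHBS, at adjusted p of up to 0.304 and 0.252. Between rFGF1ΔHBS and rFGF1WT *Hbegf* differed by 0.11, with an interval of -0.62 to 0.85.

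*Nrg1* encodes neuregulin, the ligand of ERBB3 and ERBB4, and spans chr8:31814551-32884029 on the minus strand, with 16 transcripts in its locus. *Nrg1* measured 3.77 and 3.04 FPKM in HG, 6.49 and 6.57 with rFGF1WT, and 5.09 and 5.28 with rFGF1ΔHBS. The groups did not overlap, with rFGF1WT highest and rFGF1ΔHBS between it and HG. Means were 3.41 ± 0.517, 6.53 ± 0.0507 and 5.18 ± 0.136 (SD, n = 2). *Nrg1* rose by 0.78 on the log2 scale with rFGF1WT (SE 0.10, interval 0.51 to 1.05, limma adjusted p = 0.0287). With rFGF1ΔHBS the change was 0.49 (0.23 to 0.76, adjusted p = 0.0694). The direct difference, rFGF1ΔHBS minus rFGF1WT, was -0.28 (-0.55 to -0.02, adjusted p = 0.905), so a passed test with one protein and a missed one with the other is not a shown difference between them. The rFGF1WT call was lost in a fit without any 1 of the 6 libraries, HG, rFGF1WT or rFGF1ΔHBS, at adjusted p of 0.0575 to 0.121, and with no filter on low loci (0.0611). How fragments were assigned to the different neuregulin isoforms is not visible in a value per locus.

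*Tgfa*, the gene of transforming growth factor alpha, another ligand of EGFR, lies at chr6:86195223-86275719 on the plus strand. It measured 2.12 and 1.84 FPKM in HG, 2.48 and 2.57 with rFGF1WT, and 2.44 and 2.57 with rFGF1ΔHBS. The 4 treated libraries were above both HG libraries and overlapped each other. The log2 fold change was 0.24 with either protein (limma adjusted p = 0.179 for rFGF1WT and 0.186 for rFGF1ΔHBS), and the ratios of means were 1.28 and 1.27. Between the proteins the difference was -0.01 (-0.23 to 0.22).

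*Btc*, *Areg* and *Ereg* lie near each other on chromosome 5, at 91357261-91402994 (minus strand), 91139599-91148432 (plus) and 91074622-91093646 (plus). *Btc*, which encodes betacellulin, a ligand of EGFR and ERBB4, measured 0.343 and 0.482 FPKM in HG, 0.279 and 0.0631 with rFGF1WT, and 0.311 and 0.367 with rFGF1ΔHBS. Both rFGF1WT libraries were below both HG libraries, while rFGF1ΔHBS overlapped HG. Without the filter on low loci its log2 fold changes were -0.27 (limma adjusted p = 0.361) and -0.08 (0.804). *Areg*, the amphiregulin gene, was listed at 0 in 5 of the 6 libraries and at 0.0368 in rFGF1WT replicate 1. *Ereg*, the epiregulin gene, was listed at 0.00524 in HG replicate 1, 0.0107 in rFGF1WT replicate 1 and 0 in the other libraries. At these levels no difference between the groups was detectable for either gene.

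The 6 ligand genes together measured 15.4 and 10.3 FPKM in HG, 23.2 and 25.1 with rFGF1WT, and 24.2 and 24.3 with rFGF1ΔHBS. The treated sums were all above the HG sums and overlapped between the proteins. *Hbegf* held 59.5% and 48.0% of the sum in HG, 60.0% and 63.4% with rFGF1WT, and 67.6% and 66.1% with rFGF1ΔHBS. *Nrg1* held 24.5% and 29.5% in HG, 28.0% and 26.2% with rFGF1WT, and 21.0% and 21.8% with rFGF1ΔHBS. The summed level was therefore made up mainly of *Hbegf* and *Nrg1* in each library, with *Tgfa* at 10.1% to 17.9% and *Btc* at most 4.67%.

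**Figure D3:**
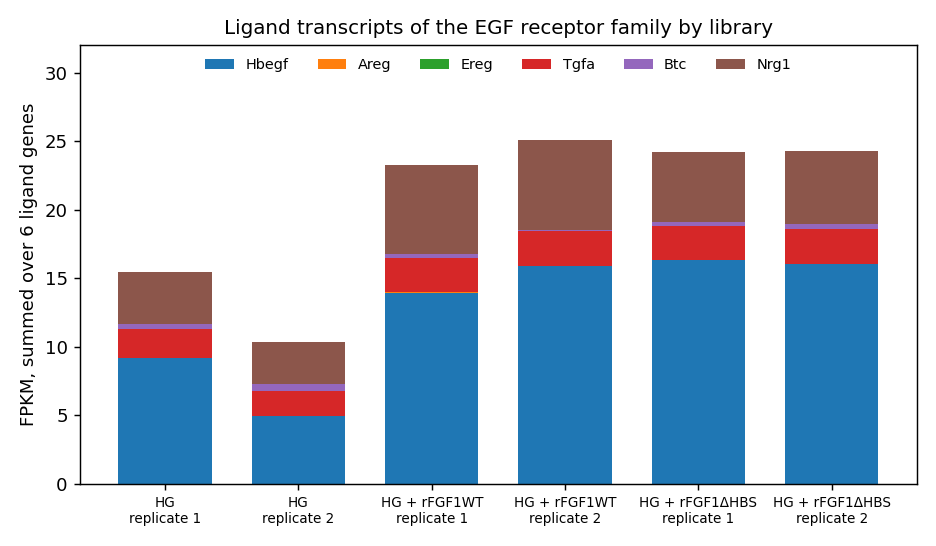
Stacked bars show, for each of the 6 libraries (horizontal axis), the FPKM of the 6 ligand genes (vertical axis, starting at 0), with colors marking the genes. The HG bars reach 15.4 and 10.3 and the treated bars 23.2 to 25.1, and *Hbegf* is the largest segment of every bar.

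Among the feedback genes, *Errfi1* was the member that rose with both proteins. It encodes the inhibitor that binds EGFR and other receptors of the family from inside the cell, and lies at chr4:150853919-150868892 on the plus strand. *Errfi1* measured 6.89 and 6.42 FPKM in HG, 10.3 and 12.6 with rFGF1WT, and 13.6 and 14.0 with rFGF1ΔHBS. HG was lowest and rFGF1ΔHBS highest, and no group overlapped another. Means were 6.65 ± 0.329, 11.5 ± 1.60 and 13.8 ± 0.247 (SD, n = 2). *Errfi1* rose by 0.70 on the log2 scale with rFGF1WT (SE 0.11, interval 0.41 to 0.98, limma adjusted p = 0.0423) and by 0.95 with rFGF1ΔHBS (0.66 to 1.24, adjusted p = 0.0226). The difference between the proteins was 0.25 (-0.03 to 0.54, adjusted p = 0.905). The rFGF1WT call was lost without any 1 of the 6 libraries, HG, rFGF1WT or rFGF1ΔHBS (adjusted p of 0.0549 to 0.151), and with no filter (0.0782). The rFGF1ΔHBS call was lost without either HG library or either rFGF1ΔHBS library (adjusted p up to 0.0984).

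A promoter of *Errfi1* and that of *Areg*, the tested gene called with both proteins and an untested one at 0, were found to carry the same pair of motifs. They are shown for that reason. RefSeq starts on GRCm38.p6 gave 7 windows of 250 bases before a start for 6 of the 9 genes (*Hbegf*, *Ereg* and *Nrg1* were not matched). In the sequences below, the first capitals mark TGACGTC, the core of the cyclic AMP response element, and the second mark a TATA box. The *Errfi1* window lies at chr4:150854820-150855069 and the *Areg* window at chr5:91139349-91139598, both on the plus strand. This *Errfi1* window is inside the gene span given above, so its start is internal to that span.
Errfi1: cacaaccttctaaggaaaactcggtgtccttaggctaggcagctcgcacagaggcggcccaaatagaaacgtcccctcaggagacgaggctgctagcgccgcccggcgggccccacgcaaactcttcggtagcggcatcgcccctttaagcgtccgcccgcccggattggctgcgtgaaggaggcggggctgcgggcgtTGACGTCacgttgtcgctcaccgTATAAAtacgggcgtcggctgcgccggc
Areg: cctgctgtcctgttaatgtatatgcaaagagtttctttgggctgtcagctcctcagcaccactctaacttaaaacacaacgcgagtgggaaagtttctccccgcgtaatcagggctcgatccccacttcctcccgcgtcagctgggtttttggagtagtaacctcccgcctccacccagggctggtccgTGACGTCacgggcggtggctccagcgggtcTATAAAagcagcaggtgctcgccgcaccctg
The 7 letters begin 51 bases before this internal *Errfi1* start and 61 before the *Areg* start, and the TATA box begins 28 and 31 bases before them. On either strand, TGACGTC was present in 2.78% of the 32851 mouse windows, TATAAA in 12.4% and both in 0.207% (68 windows). The other *Errfi1* window, at chr4:150853546-150853795 before the gene span, and the windows of *Btc*, *Tgfa*, *Lrig1* and *Lrig3* held neither. The AP-1 letters TGANTCA (6.75% of windows), the ETS letters CGGAAG (13.6%) and the CArG box (1.47%) were in none of the 7 windows, and the GC box GGGCGG (32.7%) was in 5. *Errfi1* was measured at 6.42 FPKM or more in each library and *Areg* was listed at 0 in 5 of 6, with these letters in both windows, which were picked after the matches had been seen.

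*Lrig1* and *Lrig3* encode related transmembrane proteins with leucine-rich repeats and immunoglobulin domains, of which LRIG1 is the better known brake on EGFR. *Lrig1* (chr6:94604529-94700158, minus strand) measured 18.7 and 18.8 FPKM in HG, 24.4 and 22.6 with rFGF1WT, and 23.4 and 21.2 with rFGF1ΔHBS. All treated libraries were above HG, and the treated groups overlapped. The log2 fold changes were 0.31 (0.11 to 0.51, limma adjusted p = 0.0958) with rFGF1WT and 0.24 (0.04 to 0.43, adjusted p = 0.148) with rFGF1ΔHBS. Between the proteins *Lrig1* differed by -0.07 (-0.27 to 0.12).

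*Lrig3* (chr10:125966168-126015359, plus strand) measured 5.03 and 5.37 FPKM in HG, 4.41 and 4.91 with rFGF1WT, and 4.32 and 4.97 with rFGF1ΔHBS. Its treated libraries were all below HG, by log2 fold changes of -0.13 (adjusted p = 0.448) and -0.14 (adjusted p = 0.437). The ratio of *Lrig1* to *Lrig3* was 3.73 and 3.50 in HG, 5.55 and 4.61 with rFGF1WT, and 5.42 and 4.27 with rFGF1ΔHBS. This ratio was higher in each treated library than in HG, without a test of its own.

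Receptors of the family were listed as context, as 4 genes of which 3 were tested. *Egfr*, the receptor of HB-EGF and TGF alpha, measured 17.3 and 19.0 FPKM in HG, 24.9 and 25.5 with rFGF1WT, and 27.6 and 27.4 with rFGF1ΔHBS. It rose by 0.45 with rFGF1WT (limma adjusted p = 0.0343) and by 0.57 with rFGF1ΔHBS (adjusted p = 0.0219). *Erbb3*, the receptor of neuregulin whose own kinase is nearly inactive, measured 3.88 and 3.79 in HG, 1.58 and 2.0 with rFGF1WT, and 1.86 and 1.66 with rFGF1ΔHBS. *Erbb3* fell by 0.80 with rFGF1WT (adjusted p = 0.0314) and by 0.81 with rFGF1ΔHBS (adjusted p = 0.0308). *Erbb2*, the partner receptor without a ligand of its own, changed by -0.23 (adjusted p = 0.133) and -0.28 (adjusted p = 0.0899), and *Erbb4* was at most 0.00889 in all libraries. The *Egfr* calls were lost in fits without any 1 of the 6 libraries, of HG or of either protein (adjusted p of 0.0622 to 0.128 and 0.0555 to 0.0922), as were those of *Erbb3* (0.0639 to 0.126 and 0.0543 to 0.123).

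Set beside their receptors, the members kept different proportions. The ratio of *Errfi1* to *Egfr* was 0.398 and 0.338 in HG, 0.415 and 0.493 with rFGF1WT, and 0.492 and 0.510 with rFGF1ΔHBS, above HG in all 4 treated libraries. *Nrg1* stood at 0.972 and 0.803 times *Erbb3* in HG, at 4.11 and 3.28 times with rFGF1WT, and at 2.74 and 3.18 times with rFGF1ΔHBS. The neuregulin gene was therefore below its receptor gene in HG and above it in every treated library. *Egfr* stood at 0.664 and 0.757 times *Erbb2* in HG and at 1.13 to 1.38 times in the treated libraries.

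**Figure D4:**
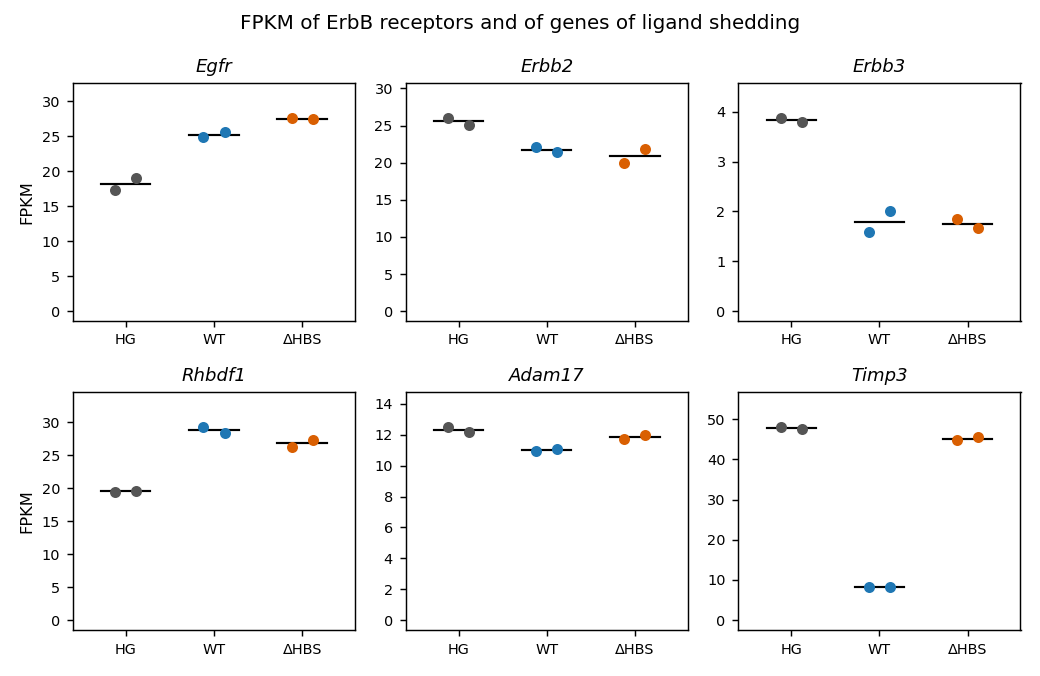
Each panel plots the FPKM of 1 receptor or shedding gene (vertical axis, starting at 0) in the 2 libraries of each group (points) with the group mean (bar). *Egfr* is higher and *Erbb3* lower in both treated groups than in HG, and *Timp3* is low, at 8.13 and 8.21, in the rFGF1WT libraries alone of the 3 groups.

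The other ligands of the family, *Egf*, *Epgn*, *Nrg2*, *Nrg3* and *Nrg4*, were all in the table, and 0 of 5 reached a mean FPKM of 1. *Egf* lay at 0.105 to 0.151, *Nrg2* at 0.418 to 0.730 and *Nrg4* at 0.221 to 0.371. *Hbegf*, *Nrg1* and *Tgfa* were hence the ligand genes of this family above that level in these cells.

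Genes of ligand release were listed as 11 shedding genes, 8 of them tested. Their RNA levels do not measure release itself. With rFGF1WT 1 rose and 1 fell, with rFGF1ΔHBS 1 rose, and between the proteins 1 was higher with rFGF1ΔHBS. Over all tested loci 6.19%, 6.26% and 0.549% passed in these comparisons, in either direction. *Rhbdf1*, whose iRhom product carries ADAM17 to the cell surface, measured 19.5 and 19.6 FPKM in HG, 29.3 and 28.3 with rFGF1WT, and 26.3 and 27.3 with rFGF1ΔHBS. It rose by 0.54 (limma adjusted p = 0.0168) and 0.43 (adjusted p = 0.0235), calls that fits without any 1 of the 6 libraries, of HG or of either protein, did not keep (0.0511 to 0.0767 and 0.0596 to 0.0970). *Adam17* itself, the main sheddase of HB-EGF and TGF alpha, measured 12.5 and 12.2 in HG, 10.9 and 11.1 with rFGF1WT, and 11.7 and 12.0 with rFGF1ΔHBS (adjusted p = 0.171 and 0.568).

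*Timp3*, which encodes an inhibitor of ADAM17, separated the proteins. It measured 48.1 and 47.4 FPKM in HG, 8.13 and 8.21 with rFGF1WT, and 44.8 and 45.5 with rFGF1ΔHBS. *Timp3* fell by 2.41 with rFGF1WT (SE 0.04, limma adjusted p = 0.00051), changed by -0.08 with rFGF1ΔHBS (adjusted p = 0.351), and was 2.33 higher with rFGF1ΔHBS than with rFGF1WT (adjusted p = 0.00074). *Timp3* lies within the *Syn3* locus on the opposite strand, and whether the fragments were counted by strand is not stated. For *Hbegf* and *Tgfa*, ligands that ADAM17 releases, the same difference between the proteins had intervals of -0.62 to 0.85 and -0.23 to 0.22. The ratio of *Timp3* to *Adam17* was 3.84 and 3.90 in HG, 0.744 and 0.743 with rFGF1WT, and 3.82 and 3.79 with rFGF1ΔHBS.

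Other regulators of receptor turnover and signaling were listed as well. Of 11 tested attenuation genes, 2 rose with rFGF1WT, *Sh3kbp1* (0.47, limma adjusted p = 0.0498) and *Ptpn12* (0.37, adjusted p = 0.0492), and 1 rose with rFGF1ΔHBS, *Ptpn12* (0.37, adjusted p = 0.0494). Upward, 3.26% and 3.37% of all tested loci passed in the same comparisons. Of 10 tested adaptor genes, *Gab1*, a docking protein for PI3K, fell with both proteins, by 0.60 (adjusted p = 0.0189) and 0.40 (adjusted p = 0.0405). *Gab2* rose with rFGF1ΔHBS by 0.52 (limma adjusted p = 0.0345). In either direction, 6.19% of all tested loci passed with rFGF1WT and 6.26% with rFGF1ΔHBS. All calls of *Sh3kbp1*, *Ptpn12*, *Gab1* and *Gab2* were lost in fits without any 1 of the 6 libraries, of HG or of either protein, at adjusted p of 0.0525 or more.

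Genes known to respond to ERK, the cascade downstream of both FGF and EGF receptors, were listed beside the members. This list was chosen with earlier results of these data known. Of 16 tested, 8 rose with rFGF1WT (*Dusp5*, *Spry2*, *Spry4*, *Etv4*, *Etv5*, *Phlda1*, *Myc* and *Ccnd1*) and 7 with rFGF1ΔHBS (*Dusp5*, *Spry4*, *Etv4*, *Etv5*, *Phlda1*, *Ier3* and *Ccnd1*). The medians of this list were 1.02 and 0.97, beside -0.04 for all tested loci in each comparison. Of all tested loci, 3.26% and 3.37% passed upward. In the list 6 passed the 2-fold limit in each comparison, beside 1.01% and 0.899% of all loci. *Etv5*, an ETS factor, rose from 0.486 and 0.578 FPKM in HG to 7.72 and 8.31 with rFGF1WT and to 8.23 and 8.42 with rFGF1ΔHBS (log2 fold changes 2.56 and 2.61, limma adjusted p = 0.00158 and 0.00199). *Etv5* and *Ccnd1* kept their calls without any 1 of the 6 libraries, and each of the other called genes lost a call in at least 1 such fit. Between the proteins 0 of the 16 passed the test, beside 0.549% of all tested loci. *Egr1* averaged 14.6, 14.1 and 13.6 FPKM in HG, with rFGF1WT and with rFGF1ΔHBS, and *Fos* 1.23, 1.25 and 1.31. Neither passed against HG. *Dusp6*, one of the genes that did not pass, differed within the rFGF1ΔHBS group (9.90 and 26.3), which was seen after the fit.

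**Figure D5:**
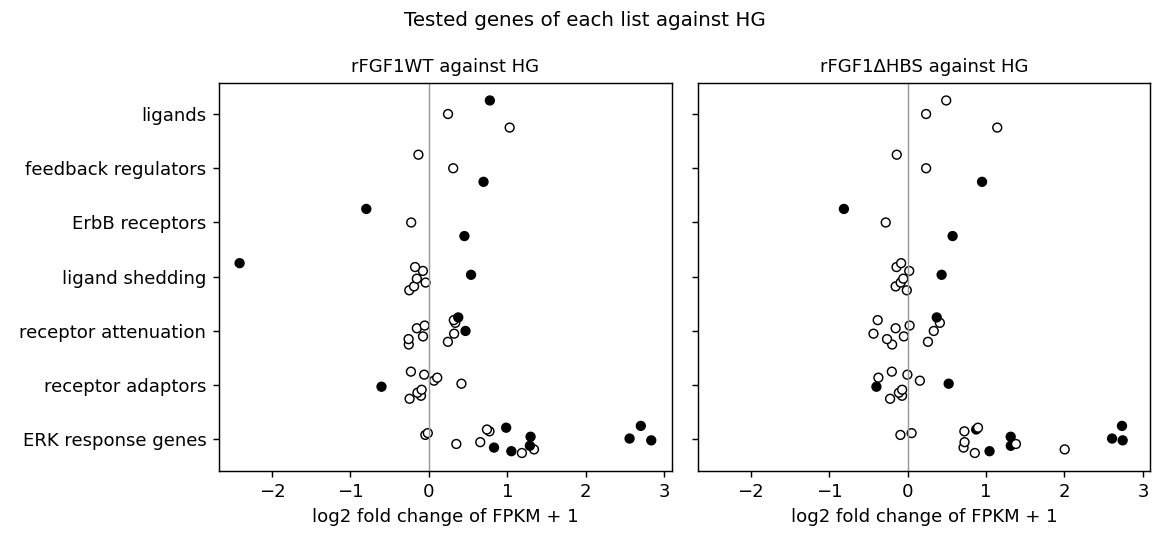
Points show the log2 fold change of FPKM + 1 against HG (horizontal axis) of each tested gene, by list (vertical axis), for both proteins. The ERK response genes reach furthest to the right, with medians of 1.02 and 0.97, and *Timp3* lies furthest to the left with rFGF1WT.

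The tested loci whose pattern over the 6 libraries lay nearest to the called members were named by the Euclidean distance of centred log2(FPKM + 1). For *Nrg1* they were *6030419C18Rik* (distance 0.151) and *Pfn1* (0.194). For *Errfi1* they were *Frmd4a* (0.235) and *Itgb2* (0.241). These distances describe 6 libraries and carry no test.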

How the data were processed

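Poly(A) RNA of 6 MPC libraries was sequenced from paired ends, and libraries were placed in 3 groups of 2 by their labels. The authors deposited 1 table of FPKM per locus, for which their methods name edgeR. The submitters' processing notes list HISAT2 2.0, StringTie 1.3.0, Bowtie 0.12.2 and the build mm8 without roles, whereas the Ensembl transcripts of the loci described here were all found in GENCODE M21 (GRCm38), from which gene positions were taken. Strand use is not given in the sources used here. GO and KEGG columns and other experiments of the paper were not used, and 0 columns of per-library values were left out. The result of 1 marker gene is not reported here.

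The 9 genes, the other lists and the tests were chosen with earlier results of these data known. After loci averaging under 1 FPKM were left out, 10562 remained (290 of them at 0 in some library), and log2(FPKM + 1) was fitted over all 6 libraries with limma 3.58.1 in R 4.3.3 (trended eBayes, 3 residual degrees of freedom), and p-values were Benjamini-Hochberg adjusted over all tested loci, with a threshold of 0.05. The pseudocount understates fold changes of low genes. Ratios of means are on the FPKM scale. An exact permutation test of 2 against 2 cannot go below 0.333 and was not used. The fit was tested on simulated data. Tables and promoter matches used pandas 2.3.3 and numpy 2.4.6 in Python 3.11.15, and plots used matplotlib 3.10.9.

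Named were all 9 members, the 4 receptors, other listed genes past the threshold, and the 2 loci nearest in pattern to each called member. *Adam17*, *Egf*, *Nrg2*, *Nrg4*, *Dusp6*, *Egr1*, *Fos* and the marker genes not past the threshold were named after their values were seen. The 12 alternatives covered the pseudocount, filters, scaling, robust fitting, the libraries fitted, a replicate block, the fold limit, summed loci and leaving out each library.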

Additional observations from a re-analysis of the deposited data

How the results depend on the processing

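For rFGF1WT against HG, 2 of the 6 tested members passed, and this count was 0 with no filter, 0 with only the 4 libraries compared, 0 with a 2-fold limit, 0 with a replicate block and 0 to 1 when each library was left out. The 1 was *Hbegf* without HG replicate 1. For rFGF1ΔHBS against HG, 1 passed, with 0 under the 2-fold limit, 0 with the replicate block and 0 to 1 without each library. Here the 1 was *Hbegf* without HG replicate 1 and *Errfi1* without either rFGF1WT library. The count was unchanged under the other settings (pseudocount 0.1, a mean FPKM of at least 5, only loci above 0, median-ratio and quantile scaling, robust fitting, summed loci), and between the proteins it was 0 throughout. Over all loci, calls of 654, 661 and 58 became 407, 386 and 51 with no filter and 170, 189 and 46 with 4 libraries. Same-numbered libraries did not deviate together (r of -0.0212, 0.0980 and -0.0467 over 10562 loci), so the numbers were not taken as pairs. With the block, all-loci calls were 41, 39 and 6, and adjusted p was 0.0887 for *Nrg1* and 0.107 for *Errfi1* with rFGF1WT and 0.0754 for *Errfi1* with rFGF1ΔHBS. Apart from the block, adjusted p ranged from 0.0265 to 0.121 and 0.0347 to 0.151 (each under 0.05 in 7 of 15 fits) and from 0.0196 to 0.0984 (11 of 15). The difference between the proteins reversed for *Tgfa* (0.012 without rFGF1WT replicate 2 and 0.020 without rFGF1ΔHBS replicate 1, in a range of -0.035 to 0.020 over fits without a library) and *Lrig3* (0.060 and 0.079 in the same fits, in a range of -0.087 to 0.079). The cause of these changes was not tested. Fits without a library have fewer samples. Of 851 single-gene values, 605 kept direction and side of the threshold, 240 lost and 2 gained a call, and 4 reversed. *Timp3* passed in every fit for rFGF1WT against HG (highest adjusted p 0.00966) and between the proteins (0.0121), and with the block (0.0143 and 0.0191). With 2 libraries per group and unknown depth, differences among genes below a mean FPKM of 1 could not be resolved.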

Other observations

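Some listed genes differed more between the libraries of 1 group than between groups, and were named after their values were seen. *Spred1*, an inhibitor of RAS activation, measured 6.73 and 28.1 FPKM with rFGF1WT. *Socs5* measured 12.1 and 3.26 with rFGF1ΔHBS, and *Ptpn1*, a phosphatase of receptor kinases, 5.15 and 13.1 in the same group. *Crk*, an adaptor, measured 8.05 and 17.0 in HG and 18.7 and 8.60 with rFGF1WT. *Adam12*, a sheddase of HB-EGF, was left out by the filter at a mean just under 1. It measured 0.238 and 0.301 in HG, 1.45 and 0.846 with rFGF1WT, and 1.60 and 1.16 with rFGF1ΔHBS. Both treated groups lay above HG without overlap, as 24.1% and 24.4% of all tested loci did with rFGF1WT and rFGF1ΔHBS. Without the filter the log2 fold changes of *Adam12* were 0.75 (limma adjusted p = 0.186) and 0.90 (0.136), which did not pass. This gene, too, was named after its values were seen.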
